A study of Macaca mulatta with 20 samples.

Results

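Whole blood RNA taken 5 days after the thorax of rhesus macaques was irradiated was compared with RNA taken before irradiation. The comparison rested on 10 of the 20 arrays of the series, those labelled Day 5 (5 arrays, replicates 1 to 5) and those labelled Pre-irradiation (5 arrays, replicates 1 to 5), joined into 5 pairs by the replicate number in the labels. All samples were from Macaca mulatta, and the labels give no strain, genotype, sex or age. The animals of the day 5 group had received 10 Gy of X-rays to the whole thorax, the samples of the other group came from before that dose (0 Gy), and the animals belonged to the arm of a larger study that was given no mitigator. The remaining 10 arrays, of days 2 and 30 after the same dose, were used only where the position of day 5 in the time course was described. For 1 sample the RNA of different animals had been pooled, and which array holds it is not given in the sources used here.

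Blood that passes through an irradiated chest exposes circulating lymphocytes, which are among the most radiosensitive cells of the body, while neutrophils are short-lived and are replaced from marrow that in a thorax field is only partly irradiated. Damaged lung and irradiated cells release signals that Toll-like receptors and the interleukin 1 receptors read, and these receptors are carried in blood mainly by neutrophils and monocytes. A whole blood transcript level therefore combines how many cells of a type are present with how much of the transcript each cell holds.

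Levels were measured on a human whole-genome microarray in 1 colour, with probes of human sequence hybridised to macaque RNA after a depletion of globin transcripts. A level is given here as the log2 of the processed signal of a probe minus the 75th percentile of its array, and levels of different probes are not compared. Tested were the 19961 of 34127 probes whose signal cleared the background on 5 or more of the 20 arrays, and they carried 15929 gene names. On the 20 arrays 50.9% to 67.3% of spots were well above background, the highest share being that of day 5 replicate 3. Positions of probes are those of the human genome build hg19 as deposited with the array design, and whether a probe lies in an exon or an untranslated region was not analysed here.

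Markers of the labelled tissue were present in both groups. The probes of HBA2, HBB and ALAS2 (red cells), CSF3R (neutrophils), CD14 (monocytes), CD3D (T cells), NKG7 (NK cells), CD79A (B cells) and PF4 (platelets) were well above background on all 10 arrays. Of 12 genes of lung and other tissues outside blood, 4 had a tested probe. The surfactant gene SFTPB was not well above background on any of the 10 arrays, SFTPC was well above background on 3 pre-irradiation arrays and 1 day 5 array, and SCGB1A1, a secretory protein of airway cells, had a mean level of -0.25 before irradiation and -0.47 at day 5. In bulk samples of this kind fewer cells of a type and less RNA per cell cannot be told apart.

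At day 5, limma called 0 of the 19961 probes (0.0%) at an unadjusted p under 0.005 with a false discovery rate (FDR) under 10%. The smallest FDR was 0.281. At an unadjusted p under 0.05 there were 2266 probes (11.4%), of which 1438 were higher at day 5 (7.2% of those tested) and 828 lower (4.15%). The unadjusted p was under 0.005 for 321 probes (1.61%), of which 245 were higher (1.23%) and 76 lower (0.381%), and the FDR at that p was 31.0%. A paired test that borrows no spread from other probes called 1 probe, that of RFTN1, a raft protein of B cells, which was lower by 0.51 on the log2 scale (adjusted p = 0.0673 by that test and 0.31 from limma). After median scaling limma called 9 probes (adjusted p = 0.0799), those of AFAP1L2, ANKRD20A19P, CXorf67, HAS1, DAW1, PDZD3, CYP39A1 and 2 transcripts without a gene symbol. All gene results that follow are differences with unadjusted p-values on the 75th percentile scale, on which none met the FDR limit in limma.

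Most of the 321 probes were higher at day 5, and 23.7% were lower (exact 95% binomial interval 19.1% to 28.7%, which treats probes as independent). The median difference was 0.91 on the log2 scale among the higher probes and -0.78 among the lower, with a median standard error of 0.19. At least 2-fold differences were found for 99 higher and 14 lower probes. Of the 321 probes, 317 differed in 1 direction in every measured pair, against 13.1% of all probes, and since p was computed from the same 5 differences this is a description. The day 5 and pre-irradiation levels did not overlap for 27 of the higher probes (0.311% of all tested probes were higher without overlap) and for 9 of the lower (0.301% of all tested probes).

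How far the 321 probes leaned to the higher side depended on signal and on scaling. Among the 183 that were well above background on all 20 arrays 31.1% were lower, and among the other 138 the share was 13.8%. With the tested probes divided into 4 groups of equal size by mean signal, the lowest group held 107 higher and 16 lower probes at that p (2.46% of the group) and the highest held 52 and 19 (1.42%). In the lowest group the median difference over all probes was 0.60 in the replicate 3 pair, the pair whose day 5 array had the largest share of spots above background. After quantile normalization the lower share was 41.1%, and it was 51.9% with arrays scaled to their medians, where the median difference of all tested probes moved from 0.02 to -0.11.

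**Figure D1:**
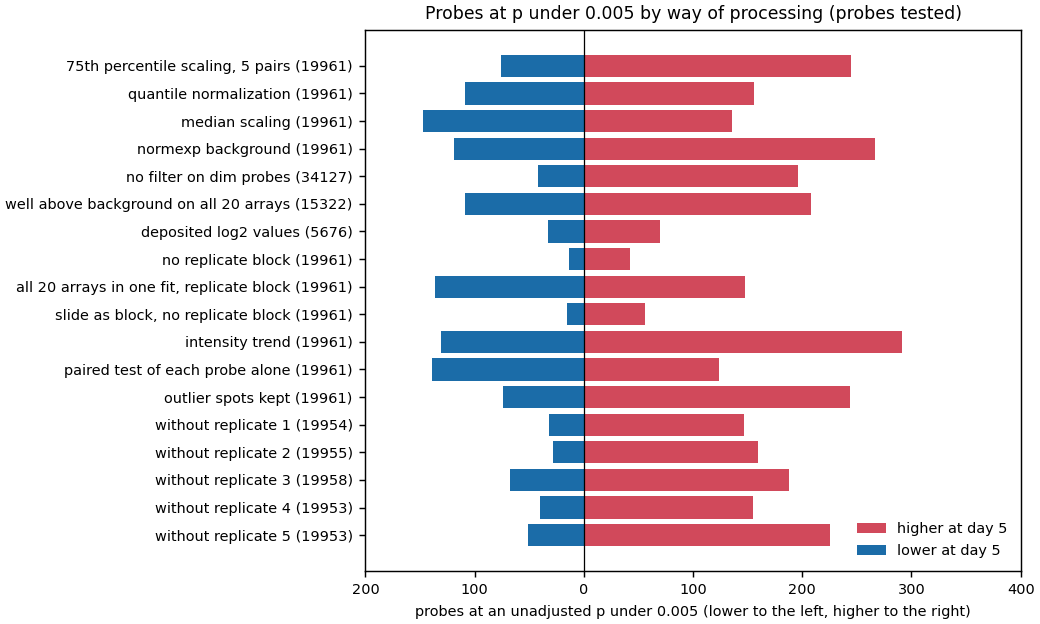
Number of probes with an unadjusted p under 0.005 for day 5 against pre-irradiation under 18 ways of processing, with lower probes drawn to the left and higher probes to the right; the number of tested probes stands in parentheses. The 245 higher and 76 lower probes in the top bar became 136 and 147 after median scaling and 42 and 14 without the replicate block.

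For 1 probe per gene, 258 of 15929 genes (1.62%) had an unadjusted p under 0.005, 200 higher (1.26%) and 58 lower (0.364%), and 1781 (11.2%) had a p under 0.05, 1125 higher (7.06%) and 656 lower (4.12%). A difference above 0 was found for 53.3% of genes, with a median of 0.02. These are the values beside which the counts for gene groups are to be read. The 1131 tested genes of 44 lists of blood cell types and responses included 44 genes at p under 0.005 (3.89%), 35 higher and 9 lower. The lists were chosen with earlier results of these data known, so a share above that of all genes is a description.

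The largest higher differences in 1 direction in all pairs included a fetal globin, a receptor component for bacterial lipopolysaccharide, a calgranulin of neutrophils and chains of complement C1q. HBG1, which encodes a gamma chain of fetal hemoglobin, had levels of 6.29, 6.83, 6.74, 4.77 and 5.93 in pre-irradiation replicates 1 to 5 and of 7.28, 7.96, 8.65, 8.40 and 7.84 in the day 5 replicates. Every day 5 level was above every level before irradiation. The difference was 1.91 on the log2 scale (standard error 0.36, 3.77-fold, unadjusted p = 0.000838 and FDR = 0.281 from limma). It lay between 1.48 and 2.15 with each replicate left out. The probe lies on chromosome 11 at 5269534 to 5269593, on the minus strand, and its sequence cannot be assumed to tell HBG1 from its near-identical neighbour HBG2. A second HBG1 probe gave 1.83.

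The other globins and heme genes differed less. The adult globin genes HBA2 (0.10, standard error 0.22) and HBB (0.19, standard error 0.14) and ALAS2, the first enzyme of heme synthesis in red cells (0.25, standard error 0.21), had p-values of 0.677, 0.198 and 0.285. Of the 33 tested genes for red cells, heme and globin, 24 were above 0 and 9 below, with a median of 0.25, and 1 higher gene, HBG1, had p under 0.005. At p under 0.05, 2 were higher, HBG1 and SELENBP1, and 1 lower, TSPAN5. The list's median was -0.82 in the replicate 4 pair and between 0.10 and 1.13 in the other 4, and without replicate 4 the count at p under 0.05 was 17 higher and 1 lower. The globin depletion applied to every sample bears on the levels of these genes, and its part in the differences was not tested.

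LY96, also named MD-2, is the protein through which TLR4 binds lipopolysaccharide. Its levels were -0.50, -0.80, 0.13, -1.62 and 0.58 before irradiation and 0.38, 1.37, 0.90, 1.70 and 2.66 at day 5. Each day 5 level was above that of its own pair, although replicate 1 at day 5 lay below replicate 5 before irradiation. The difference was 1.84 (standard error 0.36, 3.59-fold, unadjusted p = 0.00108 and FDR = 0.281 from limma). Pairing by slide in place of replicate number gave differences between -0.20 and 4.28 on the 5 slides.

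S100A12, a calcium-binding alarmin that neutrophils release, had levels of -0.75, -1.10, -2.81, -4.17 and 0.32 before irradiation and 0.44, 0.38, -1.42, -0.35 and 1.02 at day 5. The groups overlapped, and the pair of replicate 4 differed by 3.81 while the others differed by 0.70 to 1.48. The mean difference was 1.71 (standard error 0.41, unadjusted p = 0.00338 from limma), and a second probe gave 1.56. Without replicate 4 the first probe's difference was 1.19.

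C1QA encodes a chain of C1q, which starts the classical complement pathway and is made by monocytes and macrophages. Its levels were -2.86, -3.70, -2.09, -2.61 and -2.66 before irradiation and -2.01, -0.56, -1.77, -1.45 and -0.09 at day 5. No day 5 level fell within the range before irradiation. The difference was 1.61 (standard error 0.41, 3.05-fold, unadjusted p = 0.00448 from limma). C1QB was higher by 1.38 (unadjusted p = 0.02 from limma), with overlapping groups. C1QC was not well above background on any pre-irradiation array and was on 2 day 5 arrays, so no fold is given. Leaving out 1 replicate moved the p of C1QA to as much as 0.0179.

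**Figure D2:**
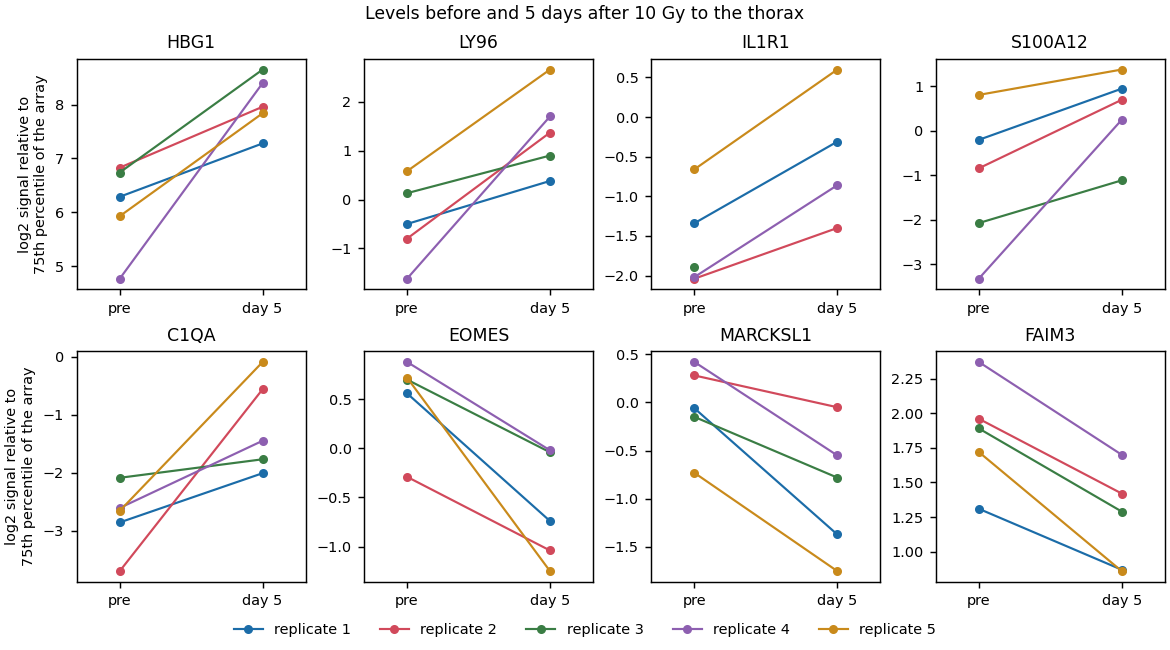
Levels of 8 genes on the log2 scale, relative to the 75th percentile of the array, before irradiation and at day 5; each line joins the samples of 1 replicate number. HBG1 and C1QA did not overlap between groups, LY96, IL1R1 and the second S100A12 probe were higher at day 5 in every measured pair with overlap, and EOMES, MARCKSL1 and FAIM3 were lower in every pair; the day 5 spot of IL1R1 in replicate 3 was marked as an outlier and is not drawn.

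The remaining higher genes of the 12 named were dim or of less known roles in blood. ANKRD20A19P, a pseudogene of an ankyrin repeat family, gave the largest difference, 2.25 (standard error 0.38), from levels of -2.20, -3.05, -3.77, -3.20 and -5.57 to levels of -1.31, -1.69, -1.08, -0.62 and -1.86. Its groups did not overlap, and its probe was well above background on 12 of the 20 arrays, 3 of them from before irradiation. PDZD3 (2.00), DAW1 (1.81), JPH1 (1.68) and CCM2L (1.65) were also higher in every pair, on probes well above background on 1 to 3 of the pre-irradiation arrays. A second CCM2L probe gave 0.06. The named probes of CYP39A1, an oxysterol hydroxylase, and HAS1, a hyaluronan synthase, were not well above background on any pre-irradiation array. No fold is given for them. A second HAS1 probe, well above background on all 20 arrays, was higher in every pair, by 1.11 (unadjusted p = 0.00204 from limma). Another tested HAS1 probe gave 0.92. SCHIP1 (2.41) and BC023640 (2.66) had larger mean differences at p under 0.005 but were lower at day 5 in the replicate 1 pair. Each of their probes was well above background on 8 of the 20 arrays.

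**Figure D3:**
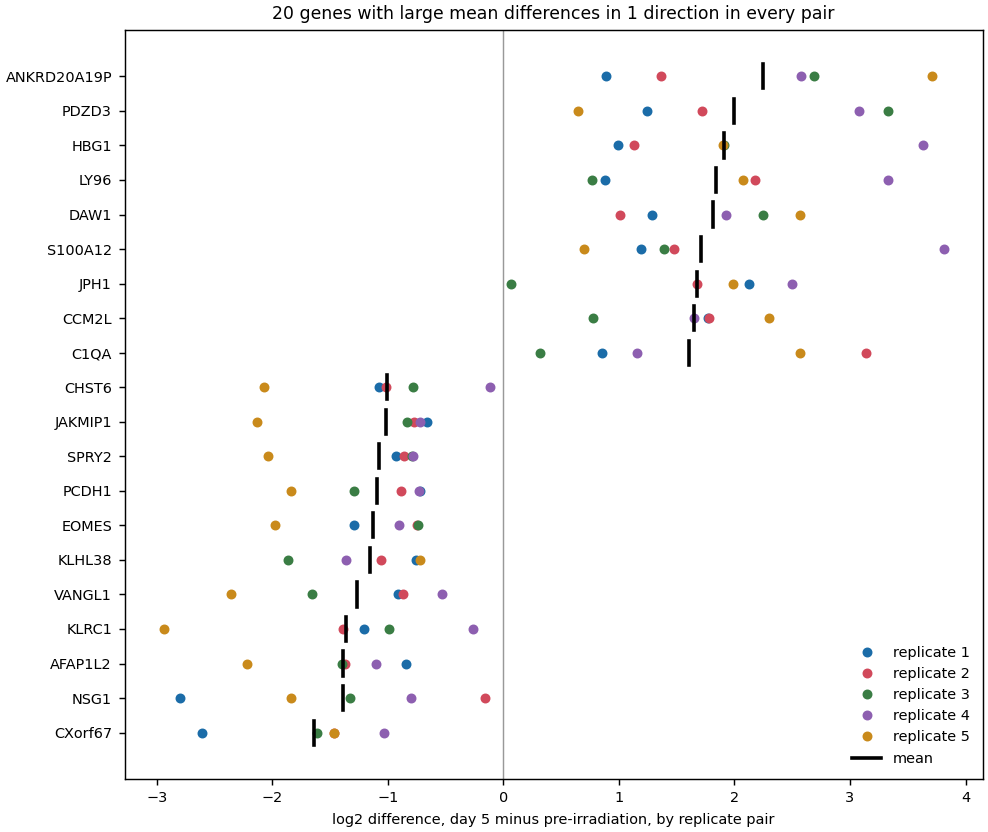
Difference on the log2 scale, day 5 minus pre-irradiation, for each replicate pair (points) and their mean (bars), for the 9 higher and 11 lower of the 24 genes chosen by size of difference whose signal cleared the background on at least 1 array of each group. The means run from 1.61 to 2.25 for the higher genes and from -1.64 to -1.01 for the lower, and for 8 of the lower genes the replicate 5 pair is the one farthest from 0.

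Genes of cytotoxic lymphocytes stood among the lower differences. EOMES, a transcription factor of NK cells and cytotoxic T cells, had levels of 0.56, -0.29, 0.70, 0.88 and 0.72 before irradiation and -0.74, -1.04, -0.04, -0.02 and -1.25 at day 5. Only replicate 2 before irradiation lay within the day 5 range. The difference was -1.13 (standard error 0.21, 2.19-fold lower, unadjusted p = 0.000798 from limma). The probe lies on chromosome 3 at 27758141 to 27758200, on the minus strand.

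TBX21, also named T-bet, is the related factor that drives type 1 immunity in the same cells. It had levels of 3.99, 3.29, 3.69, 3.48 and 3.02 before irradiation and 3.19, 2.35, 2.57, 2.84 and 2.48 at day 5. The groups met only where replicate 5 before irradiation lay below replicate 1 at day 5. The difference was -0.81 (standard error 0.15, 1.75-fold lower, unadjusted p = 0.000752 from limma). KLRC1, which encodes the inhibitory NK receptor NKG2A and belongs to a family of similar sequences, was lower by 1.36 (fold 2.57), on a probe well above background on 5 arrays before irradiation and 2 at day 5.

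AFAP1L2, an adaptor protein of the actin filament, separated the groups. Its levels were -0.85, -1.0, -0.03, -0.19 and -0.32 before irradiation and -1.70, -2.37, -1.43, -1.29 and -2.54 at day 5. The highest day 5 level was below the lowest level before irradiation. The difference was -1.39 (standard error 0.21, 2.61-fold lower, unadjusted p = 0.000213 from limma), and it lay between -1.52 and -1.18 with each replicate left out.

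Other genes with large lower differences had varied roles. PCDH1, a protocadherin, was lower by 1.09 on the log2 scale, SPRY2, an inhibitor of growth factor signalling, by 1.08, and JAKMIP1, a protein that binds microtubules, by 1.02. VANGL1, a planar polarity protein, was lower by 1.27, NSG1, an endosomal protein, by 1.39, and KLHL38 by 1.15. CXorf67 was lower by 1.64 on a probe well above background on 6 of the 20 arrays. CHST6, a sulfotransferase, was lower by 1.01 on 1 probe and its second probe gave 0.05.

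Gene groups for neutrophils were higher. Of 24 tested genes of mature neutrophils, 24 were above 0, 5 had p under 0.005 (S100A12, STEAP4, AQP9, CYP4F3 and HAL) and 17 had p under 0.05, all higher. The median difference was 0.67, against 0.02 over all genes, and in the 5 pairs it was 0.81, 0.44, 0.59, 0.97 and 0.53. AQP9, a channel for water and small solutes, was higher by 0.94 (standard error 0.19), and CYP4F3, which inactivates leukotriene B4, by 0.79 (standard error 0.16). S100A9, the partner of S100A8 in calprotectin, was higher by 1.60 (unadjusted p = 0.00776 from limma). The chemokine receptors CXCR1 (0.81) and CXCR2 (0.63) and the growth factor receptor CSF3R (0.61) had p-values of 0.0282, 0.0141 and 0.00547. Without the replicate block the count at p under 0.05 was 3, with the slide as block it was 2 and after median scaling it was 8. The median of the list was 0.54 after median scaling. A change of block does not alter the differences of fully measured probes, so the median stayed at 0.67 there by construction. The count at p under 0.005 was 2 without replicate 1, 3 after median scaling and 0 without the replicate block or with the slide as block.

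Granule proteins, which are transcribed in neutrophil precursors, were also higher. Of 9 tested genes of primary granules 8 were above 0, with a median of 0.76, and 3 had p under 0.005. RNASE3, the eosinophil cationic protein, was higher by 1.40 (standard error 0.20), RNASE2 by 1.10 and CTSG, which encodes cathepsin G, by 0.76. The probes of RNASE3 and RNASE2 were well above background on 12 and 7 of the 20 arrays. MPO (0.48) and PRTN3 (0.22) had p-values of 0.125 and 0.222, ELANE was not tested, and PRSS57 was lower by 0.76 (unadjusted p = 0.0311 from limma). RNASE3 and RNASE2 are also eosinophil genes, and of the 13 genes of basophils and eosinophils 6 were above 0, with CLC at 0.95 and PRG3 at 0.73. The median of the primary granule list was 0.25 with normexp background correction, 0.44 in the deposited values and 0.46 over probes above background on all 20 arrays, and its count at p under 0.005 was 1 without replicate 1 and 0 without the replicate block or with the slide as block.

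All 13 tested genes of secondary and tertiary granules were above 0, with a median of 0.69. Of these, CEACAM8 (0.96), LCN2 (1.35), CAMP (0.70) and MMP25 (0.63) had p under 0.005, and 8 in all had p under 0.05. LTF, which encodes lactoferrin, was higher by 0.85 (unadjusted p = 0.014 from limma). MMP9 differed by 0.08 (unadjusted p = 0.56 from limma). The medians of both granule lists were above 0 in all 5 pairs, between 0.38 and 0.86 for primary and between 0.27 and 0.79 for the later granules. Without the replicate block 1 gene of each list was higher at p under 0.05. For the later granules the count at p under 0.005 was 1 without replicate 1, without replicate 5 or after quantile normalization, 2 without replicate 2, without replicate 4 or after median scaling, and 0 without the replicate block or with the slide as block.

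**Figure D4:**
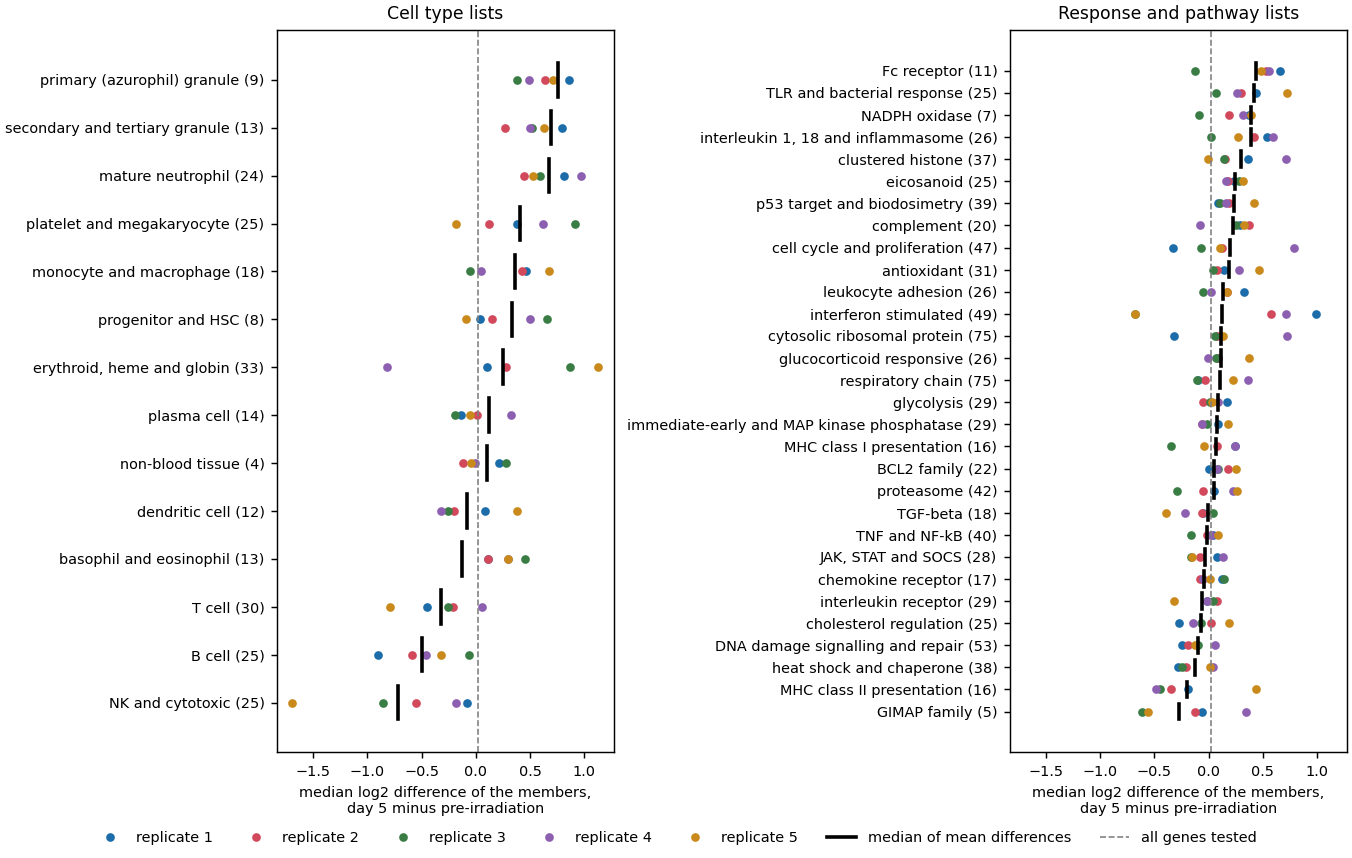
Median difference on the log2 scale over the tested genes of each list (number in parentheses), day 5 minus pre-irradiation: black bars for the mean differences, points for the 5 replicate pairs, dashed line for all genes tested (0.02). Neutrophil and granule lists lie at 0.67 to 0.76 with all pairs above 0, and the T, B and NK cell lists lie at -0.32, -0.50 and -0.72.

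Among 18 monocyte and macrophage genes 15 were above 0, with a median of 0.36. PLBD1 (0.68) had p under 0.005, and CD300E (0.68), CD14 (0.42) and VCAN (0.42) were among the others at p under 0.05. The list's medians were 0.46 and 0.43 in replicates 1 and 2, -0.05 and 0.05 in replicates 3 and 4 and 0.67 in replicate 5. Without replicate 2 the count at p under 0.05 was 2, after median scaling it was 2, without the replicate block it was 1 and with the slide as block it was 0.

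Lymphocyte groups were lower. All 25 tested genes of NK and cytotoxic cells were below 0, with a median of -0.72. KLRC1, EOMES and TBX21 had p under 0.005 and 13 genes had p under 0.05. Among the proteins of cytotoxic granules, PRF1 (perforin) was lower by 1.05 on the log2 scale, GNLY (granulysin) by 1.03 and GZMH by 1.26, with p-values of 0.00973, 0.00621 and 0.0473. GZMB (-0.72), GZMA (-0.74) and GZMK (-0.41) had p-values of 0.0702, 0.176 and 0.17. The chemokine XCL1 was lower by 1.12 and the interleukin 2 receptor chain IL2RB by 0.74. In the 5 pairs the median was -0.08, -0.55, -0.86, -0.18 and -1.69, and the replicate 5 pair was the farthest from 0. Without replicate 3 or without replicate 5 the count at p under 0.05 was 8, and without the replicate block it was 7.

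Of 25 B cell genes 24 were below 0, with a median of -0.50, and 16 had p under 0.05. CD79A, a chain of the B cell receptor, was lower by 0.63 (standard error 0.18) and TCL1A by 0.94 (standard error 0.37). FCRLA, an Fc receptor-like protein of B cells, had p under 0.005, with levels of 0.97, -1.05, 0.61, -1.44 and -2.02 before irradiation and -0.44, -2.13, 0.14, -2.41 and -2.49 at day 5. Its groups overlapped across most of their range, and each pair was lower at day 5, by 0.88 on average. TNFRSF13B was the gene above 0 (0.60). The count at p under 0.05 was 4 without replicate 2, 6 without replicate 1, 10 without replicate 4 and 6 without the replicate block. Of 14 plasma cell genes 9 were above 0, and CD38, which other lymphocytes also carry, was lower by 0.52 (unadjusted p = 0.0326 from limma).

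T cell genes were lower by less. Of 30 tested genes 27 were below 0, with a median of -0.32, 0 had p under 0.005 in limma and 8 had p under 0.05. CD8A was lower by 0.63 on the log2 scale, LCK by 0.61, IL7R by 0.61 and GATA3 by 0.60, with standard errors of 0.20, 0.19, 0.23 and 0.18. The CD3 chains CD3D (-0.07), CD3E (-0.14) and CD3G (-0.39) had p-values of 0.76, 0.425 and 0.181. The list's median was above 0 (0.06) in the replicate 4 pair and between -0.79 and -0.21 in the others. Without replicate 4 there were 13 genes at p under 0.05, without replicate 1 or replicate 5 there were 5, and without the replicate block 2. Of 16 genes of antigen presentation by MHC class II 13 were below 0, led by HLA-DQA1 (-0.97, unadjusted p = 0.00487 from limma), whose second probe gave -1.07. HLA-DQA1 kept p under 0.005 in 0 of the 5 fits that each left out a replicate. At p under 0.05, 1 gene of this list was higher and 4 were lower. The median of the class II list was 0.44 in the replicate 5 pair and between -0.49 and -0.19 in the others.

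MARCKSL1, FAIM3, LY96 and IL1R1 had been chosen by the study from these samples for a measurement by qRT-PCR, so their differences are not independent evidence. MARCKSL1, a substrate of protein kinase C, had levels of -0.06, 0.28, -0.15, 0.42 and -0.73 before irradiation and -1.37, -0.05, -0.78, -0.55 and -1.75 at day 5. Each pair was lower at day 5 with overlapping groups, and the difference was -0.85 (standard error 0.18, unadjusted p = 0.00157 from limma). FAIM3, also named FCMR, is the receptor for IgM on lymphocytes. It had levels of 1.31, 1.96, 1.89, 2.37 and 1.72 before irradiation and 0.87, 1.42, 1.29, 1.70 and 0.86 at day 5. The groups overlapped, each pair was lower, and the difference was -0.62 (standard error 0.14, unadjusted p = 0.00234 from limma).

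IL1R1, the signalling receptor for interleukin 1, had levels of -1.34, -2.04, -1.89, -2.02 and -0.66 before irradiation and -0.31, -1.40, -0.86 and 0.60 in day 5 replicates 1, 2, 4 and 5. The spot of day 5 replicate 3 was marked as an outlier by the scanner software and was dropped, so the difference of 1.02 (standard error 0.18, unadjusted p = 0.000903 from limma) rests on 4 pairs. All 4 were higher at day 5. A second IL1R1 probe gave 0.94. IL1R2, the decoy receptor that takes up interleukin 1 without signalling, had levels of -1.67, 0.01, -0.13, -1.16 and 0.27 before irradiation and 0.08, 0.62, 0.56, 0.14 and 1.07 at day 5. It was higher in every pair with overlapping groups, by 1.03 on average (standard error 0.20, unadjusted p = 0.00109 from limma). With NAIP (0.76), these were the 3 of 26 genes of the interleukin 1, interleukin 18 and inflammasome list at p under 0.005, and 21 of the 26 were above 0, with a median of 0.39. The count at p under 0.005 was 5 without replicate 3 and 1 without any other replicate, and it was 0 without the replicate block or with the slide as block. The fits required 4 pairs, so the IL1R1 probe was not tested without replicate 1, 2, 4 or 5. Part of the fall to 1 is therefore a gene left untested.

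Of 25 genes of the Toll-like receptor and bacterial response list 20 were above 0, with a median of 0.42. At p under 0.05 there were 10, all higher. Beside LY96 these included the receptors TLR6 (0.83), TLR1 (0.61), TLR2 (0.59) and TLR4 (0.49), the adaptor MYD88 (0.67) and the amplifier TREM1 (0.74). Without replicate 1 the count was 5, without replicate 2 it was 4, without replicate 5 it was 6, after median scaling 3, and without the replicate block or with the slide as block 2. TLR3, which reads double-stranded RNA and is not in the list, was lower by 0.94 (standard error 0.21, unadjusted p = 0.00211 from limma), in all 5 pairs with overlapping groups. These genes are also carried by neutrophils and monocytes, whose lists were higher in the same samples, and the part of those cells in the values was not tested. Of 20 complement genes 14 were above 0, with a median of 0.22, and C1QA, C1QC and CFD (1.05), which encodes factor D of the alternative pathway, had p under 0.005. That count was 1 without replicate 1, 2, 4 or 5 and 0 after quantile normalization.

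Of 39 targets of p53 and genes used in blood biodosimetry, 30 were above 0, with a median of 0.23, and 7 were higher at p under 0.05. That count was 2 without replicate 2, 4 with the slide as block and 2, beside 2 lower, after median scaling, with which the median was 0.10. TNFRSF10B, a death receptor for TRAIL, was higher by 0.83 (standard error 0.16, unadjusted p = 0.000928 from limma), TP53I3 by 1.08 and PMAIP1 (NOXA) by 0.57. TNFRSF10B was the 1 list gene at p under 0.005, on a probe well above background on 8 arrays of the series. It kept that p in 4 of the 5 fits that each left out a replicate. The list's count at that p was 0 after quantile normalization or median scaling, without the replicate block and with the slide as block. MDM2, the ubiquitin ligase that degrades p53, was higher by 0.35 (unadjusted p = 0.0462 from limma), and MYC was lower by 0.41. Another MDM2 probe, which is not the one counted in the list, was higher in every pair, by 0.86 (unadjusted p = 0.00245 from limma). Of 53 genes of DNA damage signalling and repair 37 were below 0, with a median of -0.10, and 7 were lower at p under 0.05, among them PARP1 (-0.55) and PRKDC (-0.49). Without the replicate block the latter count was 2 and with the slide as block 1.

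Genes of dividing cells were mixed. Of 47 tested genes 31 were above 0, with a median of 0.20, which was -0.33 in the replicate 1 pair and 0.79 in the replicate 4 pair. RRM2, a subunit of ribonucleotide reductase, was not well above background on any pre-irradiation array and was on 2 day 5 arrays, so no fold is given. Its pair of replicate 1 was lower by 0.15, and p under 0.005 was kept in 1 of the 5 fits that each left out a replicate. ASPM (0.99) and PBK (1.10), both of mitosis, had p-values of 0.00517 and 0.0192, and MCM2 was lower by 0.48. Of 37 histone genes of the replication-dependent clusters and their relatives 31 were above 0, with a median of 0.30, and 10 were higher at p under 0.05, against 1 higher and 1 lower after median scaling.

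Interferon-stimulated genes did not differ in 1 direction across the pairs. Of 49 tested genes 37 were above 0 with a median of 0.12, and 1, SAMD9 (0.79), had p under 0.05. The list's median was 0.99, 0.57 and 0.71 in replicates 1, 2 and 4 and -0.68 in both replicates 3 and 5. After median scaling it was -0.01. Among 75 genes of cytosolic ribosomal proteins 60 were above 0 with a median of 0.11, and the direction turned after quantile normalization (-0.03) and median scaling (-0.02).

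Some single genes of metabolism and hormone response stood at p under 0.005 in lists that otherwise differed little. CRISPLD2, a secreted protein that binds lipopolysaccharide, was higher by 1.55 and SGK1, a kinase induced by glucocorticoids, by 0.83, while 17 of the 26 glucocorticoid responsive genes were above 0 with a median of 0.11. ABCA1, the exporter of cholesterol, was higher by 0.78. BCL2A1, a survival protein of myeloid cells, was higher by 0.76 and the lactate transporter SLC16A3 by 0.56. COX7B was higher by 1.23, although 1 of the 75 respiratory chain genes had p under 0.005 and their median was 0.10. Of 17 chemokine receptors 7 were above 0 and 10 below, with a median of -0.04. At p under 0.05, 3 were higher and 3 lower, against 0 and 3 after median scaling and 0 and 0 without the replicate block.

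To place day 5 in the time course, the day 5 arrays were compared with those of day 2 and day 30, paired by replicate. Both comparisons use the same day 5 arrays, and all differences from pre-irradiation use the same pre-irradiation arrays. Between day 2 and day 5 limma called 0 probes (0.0%), with 57 at p under 0.005 (0.286%) and 692 at p under 0.05 (3.47%). Between day 5 and day 30 it called 0 (0.0%), with 124 (0.621%) and 1658 (8.31%). By gene, 302 were higher at day 5 than at day 2 at p under 0.05 (1.9%) and 286 lower (1.8%), and 423 were higher at day 30 than at day 5 (2.66%) and 955 lower (6.0%).

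Platelet genes stood between the levels of day 2 and day 30. Their median difference from pre-irradiation was 1.44 at day 2, 0.41 at day 5 and 0.06 at day 30. At day 5, 24 of 25 genes were above 0, with CLEC1B, a platelet lectin receptor, at 1.06 and VWF, the von Willebrand factor, at 0.95 both at p under 0.005, and the pair medians were 0.38, 0.12, 0.91, 0.62 and -0.18. Without replicate 5 the count at p under 0.05 was 15 in place of 7, and without the replicate block it was 1. Against day 2, all 25 were lower at day 5, by a median of 0.95, 20 of them at p under 0.05 and 10 at p under 0.005 (0.22% of genes). Without replicate 1 the latter count was 1, without replicate 5 it was 2, without replicate 3 it was 6, and without the replicate block it was 2. By day 30, 13 were lower than at day 5 at p under 0.05, and the count was 8 without replicate 1 or without replicate 4 and 4 without the replicate block.

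NK and cytotoxic genes were lowest at day 2. Their median difference from pre-irradiation was -1.16 at day 2, -0.72 at day 5 and -0.04 at day 30. From day 2 to day 5, 23 of 25 were higher, 5 of them at p under 0.05, with 2 without replicate 1, 3 or 4 and 9 without replicate 2. From day 5 to day 30, 15 of 25 were higher at p under 0.05 and 6 at p under 0.005 (0.195% of genes). Without the replicate block these counts were 10 and 3, and without replicate 2, 3 or 5 the latter was 2. KLRC1 was higher at day 30 than at day 5 by 1.41 (unadjusted p = 0.000399 from limma) and GZMK by 1.36 (unadjusted p = 0.00203). AFAP1L2, EOMES, PCDH1, SPRY2, JAKMIP1 and VANGL1 were also higher at day 30 than at day 5, by 1.13, 0.94, 0.87, 1.10, 1.23 and 0.89, each at p under 0.05. CHST6 was higher by 1.05, while NSG1 (0.38), KLHL38 (-0.35) and CXorf67 (-0.35) had p-values of 0.2, 0.217 and 0.477 from limma. KLRC1 and these genes were named for low levels at day 5. GZMK was not, but it is 1 of the 6 list genes at p under 0.005 in this comparison itself. The comparison reuses those day 5 arrays, so either choice favours a rise.

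**Figure D5:**
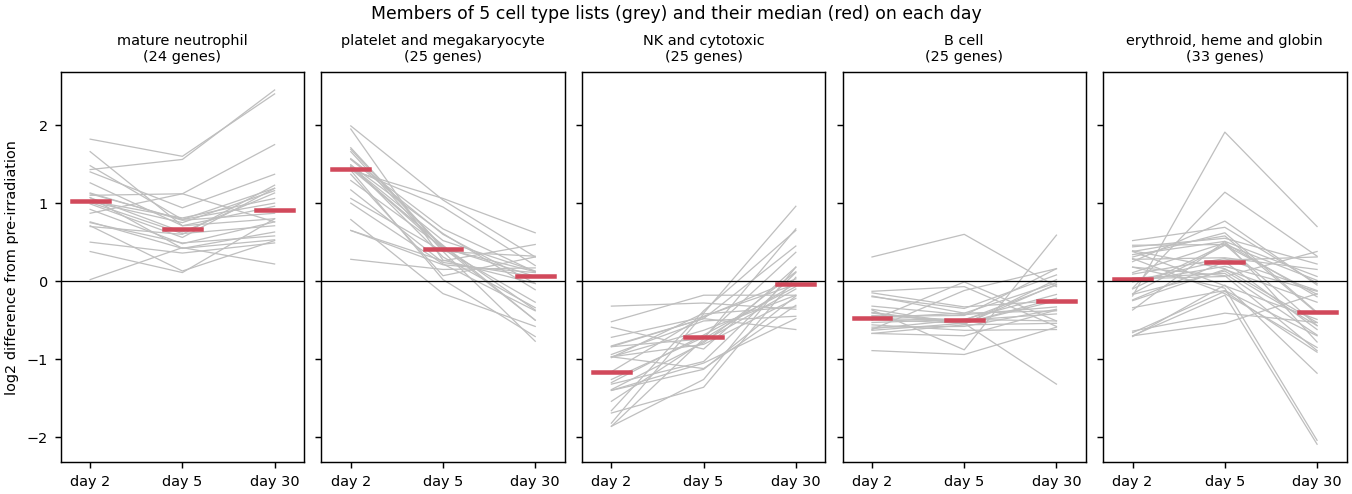
Difference on the log2 scale from pre-irradiation at days 2, 5 and 30 for the genes of 5 cell type lists (grey lines) and their medians (red bars); the 3 days share the pre-irradiation arrays. Platelet medians run 1.44, 0.41 and 0.06, NK and cytotoxic medians -1.16, -0.72 and -0.04, and HBG1 is the gene of the red cell panel that reaches 1.91 at day 5.

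Neutrophil genes did not follow that course. The list's median difference from pre-irradiation was 1.03 at day 2, 0.67 at day 5 and 0.92 at day 30, with 1 gene lower at day 5 than at day 2 at p under 0.05 and 0 different between days 5 and 30 at that p in limma. Between days 2 and 5 the lower count was 6 without replicate 2, and without replicate 3 it was 0 and 2 were higher, with a median of 0.03 against -0.33 in all pairs. Between days 5 and 30, 3 were higher without replicate 3. The B cell medians were -0.47, -0.50 and -0.25. From day 5 to day 30, 6 B cell genes were higher at p under 0.05 and 2 lower, and the higher count was 2 without replicate 5 and 3 without the replicate block.

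HBG1 levels at day 5 overlapped those of both other days. They were 6.31, 9.23, 4.36, 4.68 and 5.03 in day 2 replicates 1 to 5 and 7.09, 5.55, 9.09, 6.16 and 6.19 in the day 30 replicates. Day 2 replicate 2 and day 30 replicate 3 lay above every day 5 level, and in the other 4 pairs of each comparison day 5 was the higher. Its difference from pre-irradiation was -0.19 (standard error 0.57) at day 2, 1.91 (standard error 0.36) at day 5 and 0.70 (standard error 0.44) at day 30. It was higher at day 5 than at day 2 by 2.11 (unadjusted p = 0.0212 from limma) and lower at day 30 than at day 5 by 1.21 (unadjusted p = 0.021). ANKRD20A19P was higher at day 5 than at day 2 by 1.41 (unadjusted p = 0.00533 from limma) and lower at day 30 than at day 5 by 3.43 (unadjusted p = 0.000217). HBG1 and ANKRD20A19P were named for high levels on the day 5 arrays that these comparisons reuse, so that choice favours such differences. C1QA was lower at day 5 than at day 2 by 1.32 (unadjusted p = 0.0278 from limma), from a difference from pre-irradiation of 2.92 at day 2 to 1.61 at day 5 and 0.46 at day 30. LY96 differed from pre-irradiation by 1.18, 1.84 and 1.86 on the 3 days, and IL1R1 by 1.31, 1.02 and 1.02. From day 2 to day 5 LY96 differed by 0.66 (standard error 0.33). The day 5 value of IL1R1 rests on 4 pairs, without replicate 3.

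The position of an array on its slide was 1 for pre-irradiation, 2 for day 2, 3 for day 5 and 4 for day 30, so position and time cannot be told apart. The 5 slides each held all 4 groups, but the samples of a pair shared a slide only for replicate 2. With the slide as block in place of the replicate number 71 probes had p under 0.005, and of the 24 genes with the largest differences 11 did. HBG1 (between 1.13 and 3.07 on the 5 slides, unadjusted p = 0.000271 from limma) and AFAP1L2 (between -2.35 and -0.58, unadjusted p = 0.000791) were among these. LY96 (unadjusted p = 0.0106), S100A12 (0.055), MARCKSL1 (0.0204), FAIM3 (0.0373) and IL1R1 (0.0222) were not.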

How the data were processed

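Macaque whole blood RNA (PAXgene tubes, globin transcripts depleted) was hybridised to Agilent human arrays in 1 colour (Cy3). The deposited scanner files hold processed signal intensity per spot, background-subtracted by the authors' run of Agilent Feature Extraction (12.0.2.2 per the file headers, 10.7 in the submitters' processing notes). The authors also deposited a table of log2 values for part of the probes. For spots that are the only one of their probe, 100% of its values differed from the log2 processed signal by an array-wide constant (tolerance 0.001). It was used as an alternative.

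Control spots and spots marked as outliers were left out, spots of a probe were averaged, and log2 processed signal minus the array's 75th percentile was tested. Probes well above background on at least 5 of 20 arrays were kept (19961). Day 5 and pre-irradiation arrays were fitted in limma 3.58.1 (R 4.3.3) with the replicate number as a block, in the way the study's methods pair by animal, with a threshold of p under 0.005 and FDR under 10%, adjusted by Benjamini-Hochberg over all tested probes. The tested genes of a list have 1 probe each, the one with the highest mean level. Named genes are the 12 higher and 12 lower with the largest mean difference at p under 0.005 and 1 direction in every pair, the genes of the lists, and the study's qRT-PCR genes. SCHIP1, BC023640, RFTN1 and TLR3 were named after their values were seen. Where a probe was not well above background on any array of a group, no fold is given. Some genes that these rules name are not reported here. The members and lists were chosen with earlier results of these data known.

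Deviations of day 5 and pre-irradiation arrays of the same number correlated at 0.395, 0.654, 0.455, 0.242 and 0.124 in replicates 1 to 5. The highest correlation of each pre-irradiation array with a day 5 array of another number was 0.03, 0.133, 0.144, 0.231 and 0.106. The own number was thus the highest each time, by a small margin in replicates 4 and 5. The samples of replicate 2 also shared a slide. The fit was tested on simulated data. A p-value of the paired fit sets a mean difference against the spread of the pair differences, for which limma also draws on other probes. Its precision is limited by the small number of arrays. Python 3.11.15 was used for tables (pandas 2.3.3) and figures (matplotlib 3.10.9).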

Additional observations from a re-analysis of the deposited data

Results flagged for a closer look

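In 75 sets of 5 values, 8 had a lowest or highest value whose gap to the next exceeded 0.71 of the set's range, a limit that chance exceeds in about 1 of 20 sets. Among arrays, day 5 replicate 3 had 67.3% of its spots well above background. Among genes, the replicate 4 pair of S100A12 (3.81) and the replicate 5 pairs of SPRY2 (-2.04) and JAKMIP1 (-2.13) stood apart from the other pairs on the log2 scale. Among list medians, those that stood apart were complement in the replicate 4 pair (-0.08), Fc receptors in the replicate 3 pair (-0.13), interleukin receptors in the replicate 5 pair (-0.32) and glucocorticoid responsive genes in the replicate 5 pair (0.37).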

How the results depend on the processing

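Of the 61 single-gene differences that were recomputed under up to 17 alternatives, 603 of 993 values kept their direction and a p under 0.005, 390 kept the direction only and 0 reversed. Alternatives that change only the block, the test or the probe filter leave the difference of a fully measured probe as it is. The genes were also chosen at p under 0.005, so the lack of reversals was largely set in advance and is a description. The count of probes called in limma was 9 after median scaling and 1 by the paired test of each probe alone, and 0 otherwise.

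The number of probes at p under 0.005 (321) was 103 with the deposited log2 values, which cover 5676 tested probes, 71 with the slide as block and 179 to 276 with each replicate left out (179 without replicate 1, 187 without replicate 2, 195 without replicate 4). Without the replicate block it was 56, of which 48 were among the 321. The share of lower probes (23.7%) was 41.1% after quantile normalization, 51.9% after median scaling, 30.8% with normexp, 17.6% without the filter on dim probes, 34.4% among probes well above background on all 20 arrays, 32.0% with the deposited values, 47.9% with all 20 arrays in 1 fit, 31.0% with an intensity trend, 52.9% with each probe tested alone and 15.0% to 26.6% with each replicate left out.

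Of the genes in the lists, 44 had p under 0.005, against 72 with normexp, 26 without the filter, 24 with the deposited values, 7 without the replicate block, 5 with the slide as block, 26 with each probe alone and 22 to 44 with each replicate left out. Of the 24 named genes 13 kept that p with normexp, 9 of 9 measured on all 20 arrays, 12 of 13 in the deposited values, 11 without the replicate block, 11 with the slide as block and 4 with each probe alone. Between days 2 and 5 the 57 probes became 24 without the replicate block and 17 to 145 with each replicate left out (17 without replicate 1, 145 without replicate 2). Between days 5 and 30 the 124 became 48 without the replicate block and 70 to 175 with each replicate left out (70 without replicate 1), and 2 probes were called without replicate 5. The median standard error was 0.25 among the lowest of 4 groups of probes by signal and 0.17 in the highest.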
